A study of Mus musculus with 6 samples.

Results

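The genes described here encode 9 transcription factors of myeloid blood cells: Spi1 (the factor PU.1), Cebpa, Cebpb, Cebpd, Cebpe and Cebpg (the C/EBP family), Gfi1 and Gfi1b, and Klf4. They were taken by symbol, 9 of the 54532 genes in the deposited files, with earlier results of these data known, so counts among them are descriptions. RNA was sequenced from LSK cells of mouse bone marrow, the gate for cells that lack lineage markers and carry Sca-1 and c-Kit, in which stem and multipotent progenitor cells are found. The 3 control libraries had the genotype Phf6fl-R274X/Y, a floxed version of Phf6, which lies on the X chromosome, in males, without Cre. The 3 R274X libraries had the genotype Vav1-Cre; Phf6fl-R274X/Y, so that the same floxed allele met a Cre driven by Vav1, a promoter active across blood cells. No Cre-only group was analysed here, so Cre itself and the mutant allele cannot be told apart. The sources used here give neither the age of the mice nor whether each library came from its own animal. The p-values therefore rest on the spread of the libraries within a group, which may be technical.

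PU.1 is an ETS-family factor needed for macrophages, granulocytes and B cells, and its level helps set which of these a progenitor forms. C/EBP proteins are leucine-zipper factors. C/EBP-alpha drives the step from multipotent to granulocyte-monocyte progenitors and restrains cycling, C/EBP-epsilon acts in late granulocyte maturation, C/EBP-beta serves emergency granulopoiesis and macrophages, C/EBP-delta rises in maturing granulocytes, and C/EBP-gamma is a widely expressed partner. GFI1 and GFI1B are zinc-finger repressors that recruit the demethylase LSD1 and its CoREST partners, GFI1 in stem cells, granulocytes and lymphocytes and GFI1B in erythroid and megakaryocytic cells. KLF4 is a zinc-finger factor of monocytes that is also found in quiescent lymphocytes.

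Of the 9 genes, Klf4 rose, Cebpa and Gfi1 fell, and 6 did not pass the test. The test was edgeR's quasi-likelihood test on the deposited counts, and a gene passed at a Benjamini-Hochberg adjusted p of 0.05 over 14608 tested genes, which included all 9. Klf4 was 1.76-fold higher in the R274X libraries, Cebpa 1.46-fold lower and Gfi1 1.33-fold lower. Among all tested genes 17.9% passed in either direction, 10.1% higher and 7.89% lower, and 37.2% had groups whose libraries did not overlap. The 3 of 9 genes that passed were also the 3 whose groups did not overlap, a share of non-overlap near that of all genes. The median log2 fold change of the 9 was -0.24, beside -0.02 over all tested genes, with 2 above 0 and 7 below. Because RNA was measured in bulk, fewer cells of a type and less RNA per cell cannot be told apart.

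The promoter windows of the 3 genes that passed are shown because they are the DNA next to the start sites whose RNA differed. Each runs from 250 bases before to 50 bases after the start site, on the strand of the gene, from RefSeq on GRCm38.p6. The capitals mark every match to the motifs named below. Klf4 lies at chr4:55532426-55532725 on the minus strand, Cebpa at chr7:35119043-35119342 on the plus strand, and Gfi1 at chr5:107725756-107726055 on the minus strand.
Klf4 promoter: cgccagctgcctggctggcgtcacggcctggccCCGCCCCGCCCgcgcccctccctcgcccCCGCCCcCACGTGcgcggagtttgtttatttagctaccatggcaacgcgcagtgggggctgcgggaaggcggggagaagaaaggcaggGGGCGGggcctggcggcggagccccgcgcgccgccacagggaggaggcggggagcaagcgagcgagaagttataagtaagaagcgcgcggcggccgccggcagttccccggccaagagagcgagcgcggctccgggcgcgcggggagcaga
Cebpa promoter: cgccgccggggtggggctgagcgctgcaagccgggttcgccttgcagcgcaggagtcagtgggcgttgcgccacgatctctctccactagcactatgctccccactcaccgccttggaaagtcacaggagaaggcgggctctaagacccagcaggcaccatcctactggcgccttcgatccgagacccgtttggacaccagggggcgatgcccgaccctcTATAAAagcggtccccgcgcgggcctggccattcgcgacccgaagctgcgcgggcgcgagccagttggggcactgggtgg
Gfi1 promoter: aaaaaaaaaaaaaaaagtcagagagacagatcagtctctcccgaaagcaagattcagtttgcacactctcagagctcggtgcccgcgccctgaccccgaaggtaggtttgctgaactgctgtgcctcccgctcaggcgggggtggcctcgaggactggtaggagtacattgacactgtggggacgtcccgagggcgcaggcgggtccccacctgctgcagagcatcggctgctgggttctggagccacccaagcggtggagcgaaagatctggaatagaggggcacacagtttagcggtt
The window of Klf4 holds GGGCGG, the GC box, 4 times, at -217, -212, -189 and -101 from the start site, on either strand. It also holds CACGTG, an E-box, at -182. The window of Cebpa holds TATAAA, the letters of the TATA element, at -30. The Gfi1 window shown holds none of the motifs searched.

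The search covered both strands of 7 windows from 6 of the 9 genes, since Gfi1 had 2 windows, and Spi1, Cebpd and Cebpe had no entry. GGGCGG was in 4 of the 7 windows and in 35.66% of 32851 windows of the same length, and CCAAT was in 2 of the 7 and in 37.41%. TATAAA was in 2 of the 7, at -30 in Cebpa and at 22, past the start site, in Cebpb, and in 13.62% of all windows. CACGTG was in 1 of the 7 and in 7.15%. TATAAA and CACGTG were added after the windows were seen. TTGCGCAA and TTGCNNCAA (C/EBP), AGAGGAAGT (PU.1), TAAATCAC (GFI1) and CCACACCC (KLF) matched in 0 of the 7, and in 0.18%, 2.08%, 1.0%, 0.58% and 3.56% of all windows. The windows of Klf4, Cebpa and Gfi1 had a GC content of 74.3%, 67.3% and 58.0%, beside a median of 52.7% over all windows.

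The makeup of the libraries differed between the groups. Over all tested genes 10.1% were higher and 7.89% lower, the shares to set beside the counts of markers below. Total counts ran from 15406314 to 18106065. Phf6, the targeted gene, was at 29.6 to 33.5 CPM in controls and at 8.29 to 10.3 CPM in R274X libraries (log2 fold change -1.81, edgeR adjusted p = 6.67e-06). Kit and Ly6a (Sca-1), the positive genes of the gate, were present in all 6 libraries, Kit at 158.3 against 96.7 CPM and Ly6a at 141.7 against 247.1 CPM (control against R274X means; log2 fold changes -0.71 and 0.80, edgeR adjusted p = 0.00159 and 5.83e-05). Immunoglobulin genes took 0.293% to 1.18% of the control counts and 4.45% to 7.95% of the R274X counts. The summed CPM of 10 plasma cell markers was 378 to 960 in controls and 2144 to 4783 in R274X libraries, with 6 of 10 tested genes higher, 0 lower and none at 0. For 18 B cell markers it was 465 to 1025 and 1813 to 3608 (8 of 17 tested higher, 0 lower), and for 21 macrophage and monocyte markers 376 to 740 and 1574 to 3240 (11 of 21 higher, 0 lower). The sum of 19 neutrophil markers spread widely within both groups, from 19423 to 32413 in controls and 14638 to 38033 in R274X libraries, with 0 of 18 tested genes higher and 1 lower, Stfa1. The counts of 0 in these marker lists were also 0 by edgeR at an unadjusted p under 0.05, by DESeq2 and by limma-voom. For 15 erythroid markers the ranges were 1573 to 1865 and 2423 to 3747 (4 of 15 higher, 1 lower). Of 17 T and NK cell markers 11 were higher, among them Cd3g and Cd2, and 2 lower, Lat and Nkg7 (median log2 fold change 0.91), while their summed CPM overlapped at 321 to 336 and 282 to 322. For 17 mast cell, basophil and eosinophil markers the sums were 210 to 335 and 327 to 429 (1 of 15 tested higher, 1 lower). These counts depended on single libraries: with 1 left out, 2 to 11 macrophage, 3 to 11 B cell, 2 to 6 plasma cell, 7 to 10 T and NK cell and 2 to 5 erythroid markers were higher. The lowest counts came without control 1 or R274X 2 for macrophages (2 each), without control 2 or R274X 1 for B cells (3 each), without control 1 or R274X 1 for plasma cells (2 each), without control 1 or 2 for T and NK cells (7 each) and without control 2, R274X 1 or R274X 3 for erythroid cells (2 each). By DESeq2 19 macrophage, 14 B cell, 9 plasma cell, 11 T and NK cell and 7 erythroid markers were higher. The part of this makeup in the results was not tested, except where a value is given.

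Spi1 had the highest RNA level per length of the 9 genes and did not pass the test. The gene (ENSMUSG00000002111, protein-coding, chr2:91082390-91115756, plus strand, GRCm38) measured 281.0, 308.8 and 252.4 CPM in the controls. CPM here are counts scaled to library size with edgeR's TMM factors. In the R274X libraries it measured 248.0, 211.8 and 284.8 CPM. The R274X 3 value lay above those of controls 1 and 3, so the groups overlapped, and R274X 2 was the lowest of all. The means were 280.7 ± 28.2 and 248.2 ± 36.5 CPM (SD, n = 3 each), a log2 fold change of -0.18 (SE 0.111, edgeR adjusted p = 0.302). It was -0.075 without R274X 2, -0.29 without R274X 3 and -0.49 after quantile normalization of the FPKM, and it passed in none of the 18 alternative settings.

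Cebpa was lower in each R274X library than in each control. The gene (ENSMUSG00000034957, protein-coding, chr7:35119293-35121928, plus strand) measured 88.7, 99.4 and 87.9 CPM in the controls and 59.4, 58.3 and 71.6 CPM in the R274X libraries. R274X 3 was the nearest to the controls, and the groups did not overlap. The means were 92.0 ± 6.41 and 63.1 ± 7.35 CPM (SD, n = 3 each), giving a log2 fold change of -0.54 (SE 0.0918, edgeR adjusted p = 0.00213). It lay at percentile 8.4 of the changes of all tested genes. Leaving out any 1 library kept the call, with a highest adjusted p of 0.0189. An antisense gene, Gm45091, overlaps its exon. The sources used here do not say whether the reads keep their strand. That gene held 4 to 18 counts per library where Cebpa held 882 to 1854.

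Cebpb, Cebpd and Cebpe did not pass, and their libraries crossed between the groups. Cebpb (ENSMUSG00000056501, chr2:167688915-167690418, plus strand) measured 98.5, 82.5 and 76.9 CPM in controls and 80.5, 74.0 and 88.1 CPM in R274X libraries. Control 1 was the highest, R274X 3 came next, and R274X 2 was the lowest. The log2 difference came to -0.09 (SE 0.099, edgeR adjusted p = 0.579), from 86.0 ± 11.2 to 80.9 ± 7.06 CPM (SD, n = 3 each). Cebpd (ENSMUSG00000071637, chr16:15887286-15891031, plus strand) measured 70.2, 58.8 and 41.4 CPM in controls and 44.0, 36.7 and 63.4 CPM in R274X libraries. Its 6 libraries stood in the same order as for Cebpb. The log2 difference came to -0.24 (SE 0.302, edgeR adjusted p = 0.645). It was -0.070 without control 1, -0.080 without R274X 2, -0.43 without control 3 and -0.49 without R274X 3.

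Cebpe was the most variable of the family. The gene (ENSMUSG00000052435, chr14:54710360-54712174, minus strand) measured 96.6, 94.5 and 64.3 CPM in controls and 61.1, 40.3 and 113.1 CPM in R274X libraries. The highest and the lowest of the 6 values were both R274X libraries. The means were 85.1 ± 18.1 and 71.5 ± 37.5 CPM (SD, n = 3 each), with a log2 fold change of -0.25 (SE 0.461, edgeR adjusted p = 0.758). Without R274X 3 it was -0.75 and without R274X 2 it was 0.03, and it passed in neither case. The neutrophil marker sum was likewise highest in R274X 3, with controls 1 and 2 next, and lowest in R274X 2. Its part in the level of Cebpe was not tested.

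Cebpg had nearly equal means in both groups. The gene (ENSMUSG00000056216, chr7:35046422-35056573, minus strand) measured 33.8, 34.2 and 39.4 CPM in controls and 36.0, 39.4 and 32.6 CPM in R274X libraries. The ranges lay over each other, and R274X 2, lowest for Cebpa, Cebpb, Cebpd and Cebpe, was highest here. The means were 35.8 ± 3.10 and 36.0 ± 3.42 CPM (SD, n = 3 each), with a log2 fold change of 0.01 (SE 0.102, edgeR adjusted p = 0.961), whose sign turned with upper-quartile scaling (-0.04). For Cebpb and Cebpd, exons of a gene on the opposite strand overlap their own. These are Tmem189, with 515 to 628 counts per library beside 1119 to 1861 for Cebpb, and Spidr, with 293 to 430 beside 555 to 1325 for Cebpd. Without strand, reads of the shared bases cannot be told apart.

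Gfi1 fell, and Gfi1b had a similar estimate that did not pass. Gfi1 (ENSMUSG00000029275, protein-coding, chr5:107716657-107726036, minus strand) measured 49.2, 61.5 and 48.2 CPM in the controls and 35.2, 43.7 and 41.1 CPM in the R274X libraries. Every R274X library was below every control, with a gap of a few CPM between R274X 2 and control 3. The means were 53.0 ± 7.44 and 40.0 ± 4.34 CPM (SD, n = 3 each), giving a log2 fold change of -0.41 (SE 0.113, edgeR adjusted p = 0.0281). The call ended without control 2 (-0.30, adjusted p = 0.116) or without R274X 1 (-0.32, adjusted p = 0.126). A gene on the opposite strand, A430072P03Rik, overlaps Gfi1 exons and held 52 to 83 counts per library, beside 544 to 1148 for Gfi1. Gfi1b (ENSMUSG00000026815, protein-coding, chr2:28609450-28621982, minus strand) measured 24.9, 34.3 and 24.0 CPM in controls and 15.3, 20.9 and 25.4 CPM in R274X libraries. R274X 3 stood above controls 1 and 3, while R274X 1 was the lowest of the 6. The means were 27.7 ± 5.69 and 20.5 ± 5.09 CPM (SD, n = 3 each), with a log2 fold change of -0.44 (SE 0.212, edgeR adjusted p = 0.206). The Gfi1b value was -0.27 without control 2 and -0.26 without R274X 1. With no filter on low counts Gfi1b passed (-0.45, adjusted p = 0.00252).

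Klf4 rose, alone among the 9 genes. The gene (ENSMUSG00000003032, protein-coding, chr4:55527143-55532466, minus strand) measured 26.6, 20.9 and 29.8 CPM in the controls and 45.9, 48.9 and 41.5 CPM in the R274X libraries. The lowest R274X library stood clear of the highest control. The means were 25.8 ± 4.50 and 45.4 ± 3.69 CPM (SD, n = 3 each), giving a log2 fold change of 0.82 (SE 0.125, edgeR adjusted p = 0.00141). It lay at percentile 93.2 of the changes of all tested genes. The call held without any 1 library (highest adjusted p = 0.0118) and in all 18 alternative settings.

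**Figure D1:**
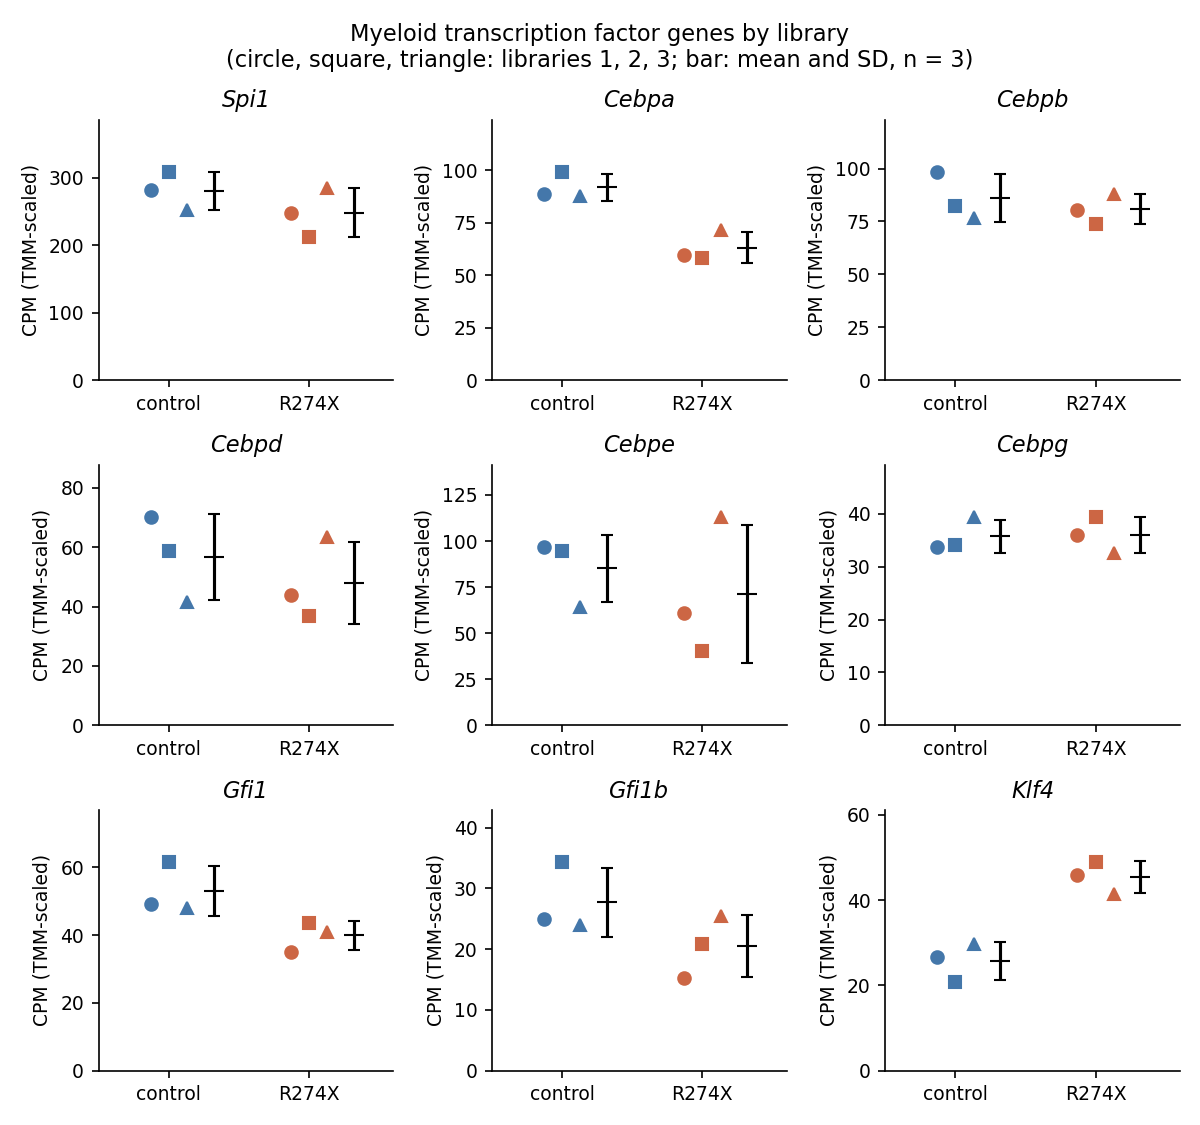
TMM-scaled CPM (y axis, from 0) of the 9 genes in 3 control (blue) and 3 R274X (orange) libraries, with circle, square and triangle for libraries 1, 2 and 3 and black bars for mean and SD. The groups are apart for Cebpa, Gfi1 and Klf4 and overlap for the other 6, with the widest R274X spread in Cebpe (40.3 to 113.1 CPM).

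**Figure D2:**
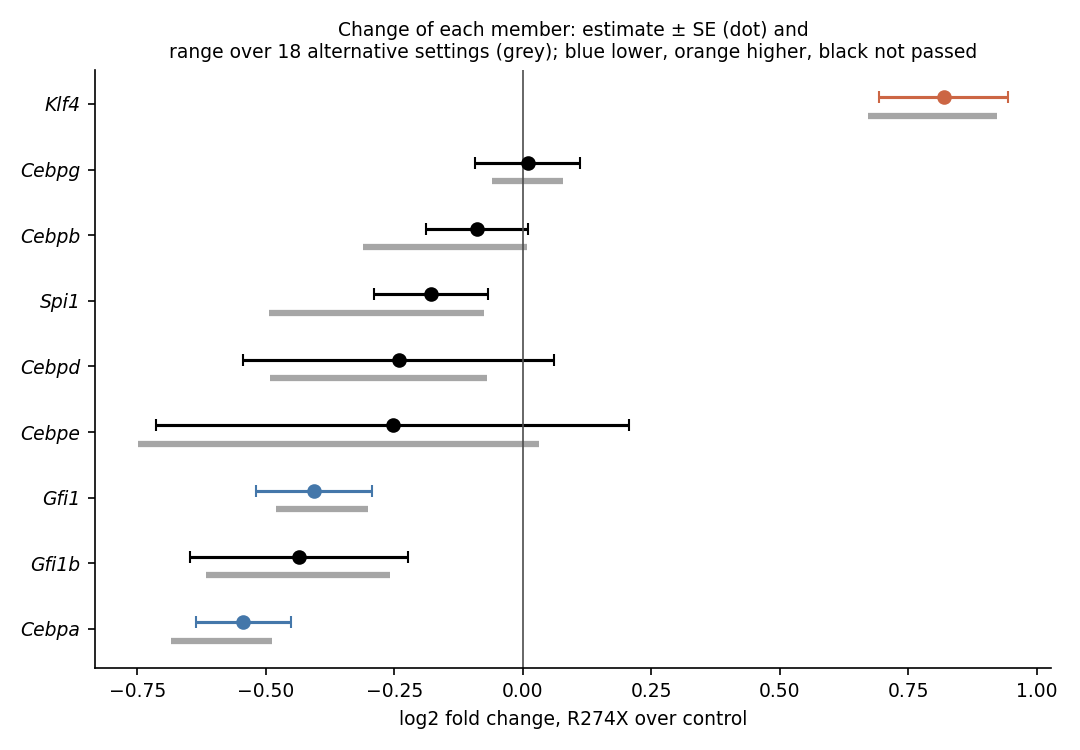
Log2 fold change of each gene, R274X over control (x axis), with the estimate and its SE (dot and whisker) above the range over 18 alternative settings (grey bar). Klf4 (0.67 to 0.92), Cebpa (-0.68 to -0.49) and Gfi1 (-0.48 to -0.30) stay on their side of 0 in every setting, while the ranges of Cebpb, Cebpe and Cebpg cross 0.

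Klf4 and Cebpa ran against each other across single libraries. Klf4 ran with the immunoglobulin share and Cebpa against it. From high to low, Klf4 stood in the order R274X 2, R274X 1, R274X 3, control 3, control 1, control 2. Cebpa stood in exactly the reverse order. The groups did not overlap for either gene, so only the order within each group adds to their opposite calls. Other genes had patterns close to these. Of 12443 genes compared, 481 had a Pearson's r of log2 CPM above 0.95 with Klf4 and 391 with Cebpa. An r this high does not require the same order of libraries. The immunoglobulin share (7.95%, 6.85%, 4.45%, 1.18%, 0.649% and 0.293%) and the plasma cell marker sum had the same order as Klf4. The sums of the B cell and the macrophage and monocyte markers had it too, but for R274X 1 and 2, which changed places. Removing all immunoglobulin genes before scaling left the log2 fold changes at 0.82 for Klf4 and -0.54 for Cebpa, and both passed. This removes only the immunoglobulin reads and not other RNA of cells that make them. The part of such cells in the changes of Klf4 and Cebpa was not tested.

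**Figure D3:**
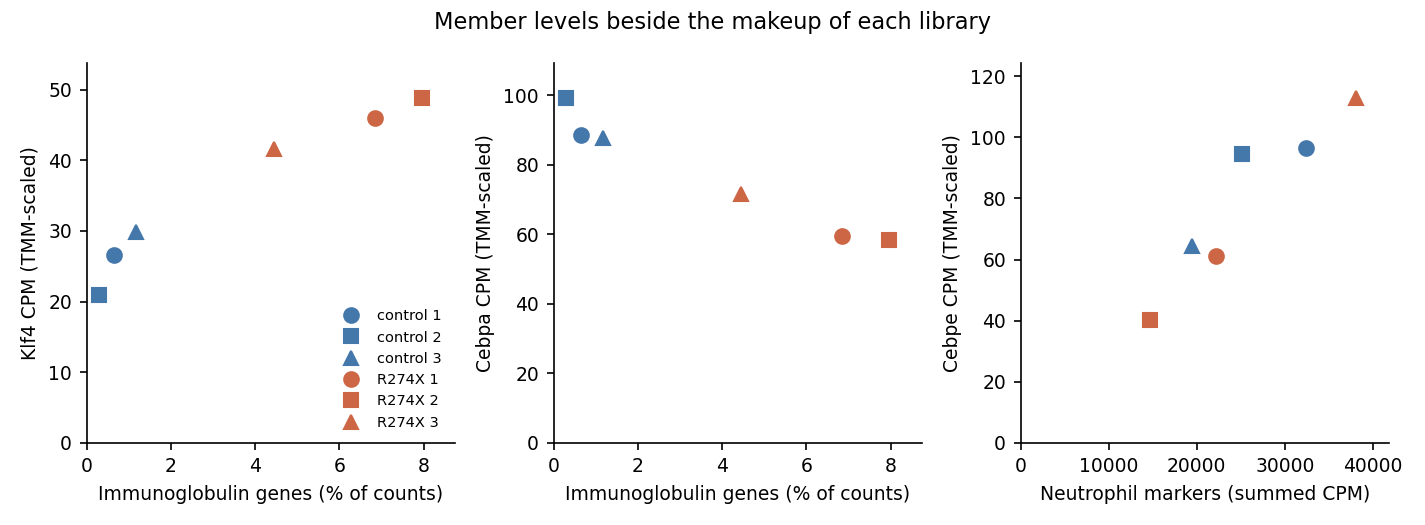
TMM-scaled CPM of Klf4 and Cebpa (y axes) against the percent of counts from immunoglobulin genes, and of Cebpe against the summed CPM of neutrophil markers (x axes), 1 point per library. Klf4 is higher and Cebpa lower in each library with a larger immunoglobulin share (0.293% to 7.95%), and Cebpe is highest in R274X 3 and lowest in R274X 2, as the neutrophil sum is.

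Single libraries shaped several of the genes at once. R274X 3 was the highest of its group for 6 of the 9 genes (Spi1, Cebpa, Cebpb, Cebpd, Cebpe and Gfi1b), where 33.2% of all tested genes were highest in that library. R274X 2 was the lowest of its group for Spi1, Cebpa, Cebpb, Cebpd and Cebpe, where 29.7% of tested genes were lowest there. Control 3 was the lowest control for 7 of the 9, all but Cebpg and Klf4, where 36.4% of tested genes were. Spi1, Cebpa, Cebpb, Cebpd and Cebpe thus had the same highest and the same lowest library within the R274X group.

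Levels of different genes were compared per length, as the deposited FPKM. In the controls the order was Spi1 (103.2 ± 9.76 FPKM), Cebpe (68.0 ± 14.2), Cebpb (56.7 ± 7.38), Cebpa (34.6 ± 2.21), Gfi1 (16.5 ± 2.22), Gfi1b (15.0 ± 2.99), Cebpd (15.0 ± 3.80), Klf4 (8.38 ± 1.51) and Cebpg (6.31 ± 0.578), each as mean ± SD of 3 libraries. Across libraries, the ranges of neighbours in that order overlapped for Cebpe and Cebpb, Gfi1 and Gfi1b, Gfi1b and Cebpd, and Klf4 and Cebpg. Within each single control, Cebpe was still above Cebpb, Gfi1 above Gfi1b, and Klf4 above Cebpg. In the R274X libraries Spi1 again stood first (91.8 ± 13.6 FPKM), with Cebpe (57.4 ± 30.2), Cebpb (53.6 ± 4.75) and Cebpa (23.9 ± 2.83) after it. Klf4 followed at rank 5 (14.9 ± 1.19 FPKM), from rank 8 in the controls. Cebpd (12.8 ± 3.69), Gfi1 (12.5 ± 1.37), Gfi1b (11.2 ± 2.80) and Cebpg (6.39 ± 0.599) came last. There, the ranges of neighbours were apart only at Cebpb over Cebpa, Cebpa over Klf4, and Gfi1b over Cebpg. Within each R274X library, Klf4 was above Gfi1 (14.99 against 10.99, 15.98 against 13.65 and 13.61 against 12.88 FPKM). In each control it was below Gfi1. The other pairs among Klf4, Cebpd, Gfi1 and Gfi1b changed places between R274X libraries, so their order is not settled.

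Ratios between factors within a library do not depend on scaling between libraries. For 7 of them the groups were set against each other with a two-sided exact permutation test. The smallest p that 3 against 3 libraries can give is 0.1, so none could reach 0.05. The ratio of Cebpa to Spi1, the factors of granulocyte-monocyte entry, was 0.323, 0.329 and 0.356 in controls and 0.245, 0.282 and 0.257 in R274X libraries. The ratio was lower in the R274X libraries, with no overlap of the groups (log2 difference -0.36, exact permutation p = 0.1, adjusted over the 7 ratios 0.175). Cebpa to Cebpb was 0.514, 0.687 and 0.652 in controls and 0.421, 0.45 and 0.464 in R274X libraries (log2 difference -0.46, exact permutation p = 0.1, adjusted 0.175). Here too no R274X library reached a control. Cebpg to Cebpa differed the other way, at 0.179, 0.161 and 0.21 against 0.284, 0.317 and 0.213, with R274X 3 barely above control 3 (log2 difference 0.56, exact permutation p = 0.1, adjusted 0.175).

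The ratio of Spi1 to Gata1, antagonists at the branch between myeloid and erythroid fates, was 17.6, 10.9 and 19.6 in controls and 22.0, 20.4 and 24.5 in R274X libraries (log2 difference 0.52, exact permutation p = 0.1, adjusted 0.175). Without control 2 the log2 difference was 0.26. Neither gene passed on its own. Gata1 measured 14.5, 25.7 and 11.6 CPM in controls and 10.2, 9.39 and 10.5 CPM in R274X libraries (log2 fold change -0.78, edgeR adjusted p = 0.122), and control 2 alone held its high value. Gfi1 to Gfi1b was 1.13, 1.03 and 1.15 against 1.32, 1.20 and 0.928, and overlapped (log2 difference 0.04, exact permutation p = 0.8). Cebpe to Cebpa (0.19, exact permutation p = 0.7) and Spi1 to Gfi1 (0.22, exact permutation p = 0.4) overlapped as well. The last was 0.13 without R274X 1, 0.14 without R274X 3 and 0.40 without R274X 2.

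Taken as shares of the summed FPKM of the 5 C/EBP genes, the family kept its main members. Cebpe and Cebpb together made up most of the sum in both groups. Cebpa took 16.7%, 19.8% and 21.6% in controls and 15.7%, 18.3% and 13.6% in R274X libraries, means of 19.4 ± 2.48% and 15.9 ± 2.37% (SD, n = 3 each, exact permutation p = 0.2, adjusted over 5 shares 0.75). R274X 2 stood above control 1, so the shares overlapped where the CPM of Cebpa did not. Cebpe took 38.6%, 40.0% and 33.6% against 34.3%, 26.9% and 45.7% (exact permutation p = 0.9). Cebpe was the largest share in the 3 controls and in R274X 3. In R274X 1 and R274X 2 Cebpb was, at 37.3% and 40.8%. The shares of Cebpb were 31.5 ± 2.32% and 35.8 ± 5.86% (SD, n = 3 each, exact permutation p = 0.3). Their difference of 4.35 points was 1.87 without R274X 2 and 7.59 without R274X 3. Cebpd took 8.23 ± 1.06% and 8.27 ± 0.185% (exact permutation p = 1.0), and Cebpg 3.57 ± 0.844% and 4.40 ± 1.46% (exact permutation p = 0.7), or 0.117 points apart without R274X 2. The sum was 200.2, 187.7 and 153.8 FPKM in controls and 142.7, 120.2 and 199.4 FPKM in R274X libraries, and R274X 3 stood above controls 2 and 3.

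**Figure D4:**
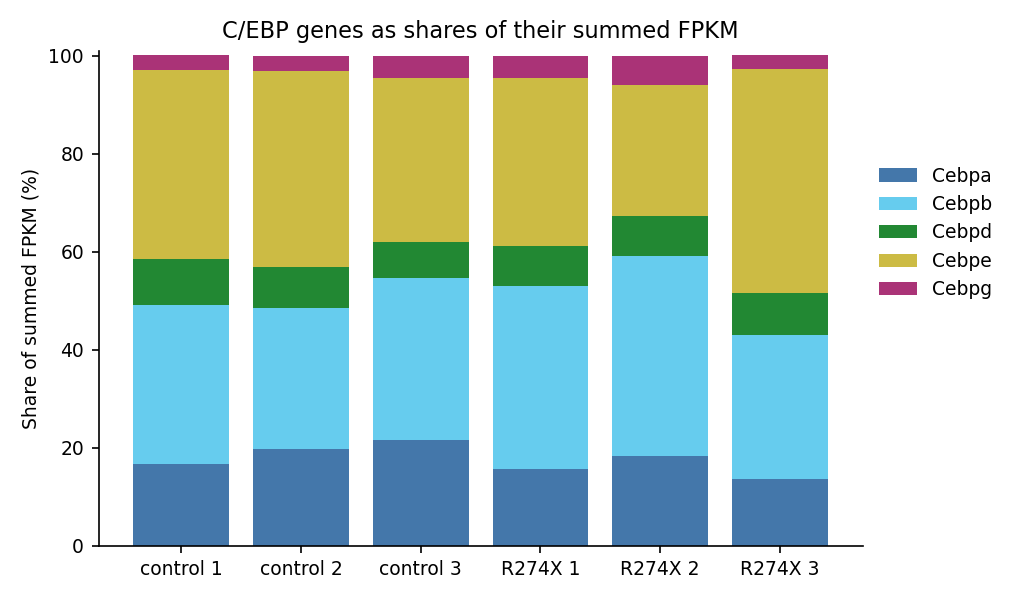
Stacked bars of the share of each C/EBP gene in their summed FPKM (y axis, percent) for the 3 control and 3 R274X libraries. Cebpa (lowest segment) runs from 13.6% to 21.6%, and Cebpe varies most, from 26.9% in R274X 2 to 45.7% in R274X 3.

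The genes whose pattern over the 6 libraries was most like that of each changed factor were found by Pearson's r of log2 CPM among 12443 tested genes outside immunoglobulin and predicted genes. The r values are descriptions over 6 libraries in 2 groups. For Cebpa these were Car2, a carbonic anhydrase (r = 0.998), and Adgra3, an adhesion receptor (0.997), and 391 genes had an r above 0.95. For Gfi1 they were Elmo3 (0.998) and Gfpt2, an enzyme of hexosamine synthesis (0.998), with 96 genes above 0.95. For Klf4 they were Rasgrp3, a Ras activator of lymphocytes (0.999), and Dse, an epimerase of dermatan sulfate (0.998), with 481 genes above 0.95. Fewer genes thus came close to Gfi1 than to Cebpa or Klf4. Rasgrp3 measured 4.39, 2.63 and 5.01 CPM in controls and 12.9, 14.2 and 10.9 CPM in R274X libraries.

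The other genes of these pathways were followed in 7 lists, which share some genes and hold 131 tested genes once each. Of these, 15 were higher and 25 lower in the R274X libraries, with a median log2 fold change of -0.07. Over all tested genes 10.1% were higher and 7.89% lower, with a median of -0.02. The counts in each list below are descriptions to be read beside these shares, at which a short list can hold 0 in a direction. With limma on log2(FPKM + 1) and no FPKM filter, 7 were higher and 8 lower, so many of the calls below were not made in that setting. The numbers below are log2 fold changes with edgeR adjusted p unless another unit is named.

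Of 22 targets and partners of PU.1, 5 rose, 2 fell and 15 did not pass (median 0.32), while Spi1 itself did not pass. Tlr4, the endotoxin receptor, had means of 7.36 ± 0.560 and 14.6 ± 1.22 CPM and rose (SD, n = 3 each; 0.98, adjusted p = 0.00108). Fcgr1, an Fc receptor of macrophages, measured 4.53 ± 0.946 and 25.5 ± 8.45 CPM in the 2 groups and rose (2.49, adjusted p = 0.00272). Irf8, the partner of PU.1 in monocyte and dendritic cell fate, measured 168.4, 143.0 and 164.3 CPM in controls and 265.6, 264.9 and 203.9 CPM in R274X libraries (0.63, adjusted p = 0.00349). Csf1r, the receptor for M-CSF, rose by 0.79 (adjusted p = 0.0263), a call that ended without control 2 (0.109), control 3 (0.0587) or R274X 2 (0.0529). Irf4, the lymphoid relative of Irf8, rose by 2.55 (adjusted p = 0.0208), which ended without control 1 (0.0938), R274X 1 (0.0839) or R274X 2 (0.0621). Csf1r and Fcgr1 are also on the macrophage marker list and Irf4 on the plasma cell list. Flt3, a cytokine receptor of multipotent progenitors, fell by 0.34 (log2 -0.34, adjusted p = 0.00877), and Csf2rb fell by 0.35 (-0.35, adjusted p = 0.0295). The Csf2rb call ended without control 1 (0.0721), control 2 (0.126), R274X 1 (0.113) or R274X 2 (0.127), and in the 4 fits on FPKM (0.0691 to 0.153). Csf2rb encodes the shared beta chain of the receptors for IL-3 and GM-CSF.

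Of 26 tested targets and regulators of C/EBP factors, 3 rose, 2 fell and 21 did not pass (median 0.01). Those counts lie near the shares over all tested genes, 10.1% higher and 7.89% lower. The primary granule genes, known targets of C/EBP-alpha, had lower means that did not pass. Mpo measured 1234, 1835 and 997.5 CPM in controls and 660.7, 473.2 and 998.0 CPM in R274X libraries (-0.93, adjusted p = 0.205), and R274X 3 lay just above control 3. Elane (-0.95, adjusted p = 0.315), Prtn3 (-0.91, adjusted p = 0.203) and Ctsg (-0.92, adjusted p = 0.251) gave like values. The late granule genes, such as Ltf (-0.01, adjusted p = 0.989) and Camp (0.11, adjusted p = 0.903), had estimates near 0. Csf3r, the G-CSF receptor, did not pass (-0.50, adjusted p = 0.402), nor did Trib1 (0.13, adjusted p = 0.431) and Trib2 (0.37, adjusted p = 0.253), which direct the degradation of C/EBP-alpha. The 3 genes that rose encode leucine-zipper proteins of the stress response that can pair with C/EBP factors: Atf3 (36.7 ± 4.54 to 76.6 ± 11.0 CPM, SD, n = 3 each; 1.06, adjusted p = 0.000344), Ddit3 (0.37, adjusted p = 0.0459) and Atf4 (0.28, adjusted p = 0.0269). The calls of Ddit3 and Atf4 ended without any 1 library but R274X 3 (0.0528 to 0.208 and 0.0567 to 0.12). Both also ended in the 4 fits on FPKM, in which Atf4 turned to -0.16 after quantile normalization (adjusted p = 0.113). Ddit3 further did not pass with upper-quartile scaling (0.0716), the robust option off (0.0773) or a minimum mean count of 50 (0.0524). Sox4, which C/EBP-alpha represses, fell (170.7 ± 2.75 to 129.5 ± 11.1 CPM; -0.40, adjusted p = 0.00449), and Batf fell (-0.34, adjusted p = 0.0466), a call that ended without any 1 library but control 1 (0.0692 to 0.146). Batf also did not pass with RLE scaling (0.0511), DESeq2 (0.0823), limma-voom (0.0535), the robust option off (0.0547) or 3 of the 4 fits on FPKM.

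Of 18 genes of the GFI1 and GFI1B corepressor complexes, 0 rose, 4 fell and 14 did not pass (median -0.11). By edgeR at an unadjusted p under 0.05 there were 3 higher (Rcor2, Hdac1 and Hmg20b), and by DESeq2 and limma-voom 0 passed as higher. Kdm1a, which encodes LSD1, did not pass (68.3 to 64.4 CPM; -0.08, adjusted p = 0.46). Gse1, a subunit of the CoREST complex, fell by 0.57, with means of 45.5 ± 5.57 and 30.7 ± 2.43 CPM (SD, n = 3 each; log2 -0.57, adjusted p = 0.00404). Rcor1 (-0.32, adjusted p = 0.018) and Rcor3 (-0.55, adjusted p = 0.0312), which encode CoREST proteins, and Phf21a (-0.30, adjusted p = 0.0316), a PHD finger subunit, fell as well. Their calls were less firm. That of Rcor1 ended without controls 1 or 2 or R274X 1 or 2 (0.0565 to 0.0737), that of Rcor3 without controls 2 or 3 or R274X 1 or 2 (0.0814 to 0.127), and that of Phf21a without any 1 library but R274X 3 (0.0564 to 0.143). Rcor3 and Phf21a did not pass in the 4 fits on FPKM, nor Phf21a by DESeq2 (0.0531). Without R274X 3, Hdac1 passed as higher.

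Of 15 erythroid and megakaryocyte factors, among which GFI1B works, 0 rose, 4 fell and 11 did not pass (median -0.23), and 0 were higher by edgeR at an unadjusted p under 0.05, by DESeq2 or by limma-voom. Tal1, a basic helix-loop-helix factor, measured 70.7, 87.0 and 65.2 CPM in controls and 36.2, 37.4 and 44.4 CPM in R274X libraries (-0.92, adjusted p = 0.00068). Lmo2, its bridging partner (-0.54, adjusted p = 0.000833), and Nfe2 (-0.61, adjusted p = 0.00446) fell too. Gata2 measured 89.7, 123.2 and 80.4 CPM in controls and 46.1, 40.3 and 59.3 CPM in R274X libraries (-1.01, adjusted p = 0.0399), a call that ended without control 1 (0.0962), R274X 1 (0.163) or R274X 2 (0.0908). Of the 15 erythroid markers, 4 were higher (Hba-a2, Hbb-bs, Alas2 and Tfrc), 1 lower (Car2) and 10 did not pass. The call of Hba-a2 ended without control 2, R274X 1, R274X 2 or R274X 3 (0.0656 to 0.12) and that of Hbb-bs without any 1 library but R274X 2 (0.0696 to 0.112). Both globin genes have near-identical copies, so their counts are uncertain.

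Among 29 other regulators of myeloid fate, 5 rose, 12 fell and 12 did not pass (median -0.11). The 3 with the smallest p fell: Etv6, an ETS repressor needed by stem cells (-0.72, adjusted p = 0.000144), Nr4a1, an immediate early nuclear receptor (-0.71, adjusted p = 0.000344), and Lmo2. Nr4a1 measured 559.0, 543.1 and 664.9 CPM in controls and 365.5, 361.4 and 352.1 CPM in R274X libraries. The genes that rose were Irf8, Irf4, Maf, a macrophage and plasma cell factor (1.62, adjusted p = 0.00736), Id2 (0.93, adjusted p = 0.0199) and Tcf4 (0.27, adjusted p = 0.0485). The Id2 call ended without control 1 (0.0563) and the Tcf4 call without any 1 library but R274X 3 (0.0819 to 0.191). Tcf4 also did not pass with upper-quartile scaling (0.0853), DESeq2 (0.0551), limma-voom (0.0512), the robust option off (0.0666), a minimum mean count of 50 (0.0536) or the 4 fits on FPKM. Runx1, which acts upstream of Spi1, fell slightly (90.7 ± 3.70 to 77.9 ± 1.73 CPM, SD, n = 3 each; -0.22, adjusted p = 0.0453), and leaving out any 1 library ended that call (0.067 to 0.131). It was not made with RLE scaling (0.0528), DESeq2 (0.0884), limma-voom (0.0543) or the 4 fits on FPKM (0.0628 to 0.158) either. Myb did not pass (-0.23, adjusted p = 0.0627).

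Of 13 other KLF genes tested, 0 rose, 2 fell and 11 did not pass (median -0.15), and Klf14 and Klf17 had no count in any library. None of the 13 was higher by edgeR at an unadjusted p under 0.05 or by limma-voom. Klf15, which lay below the count filter with 1 to 5 counts in controls and 7 to 21 in R274X libraries, passed as higher by DESeq2 (adjusted p = 0.0139). It also passed in edgeR's test with no count filter (0.00352), without control 2 (0.0316) and without R274X 3 (0.00645), but not without control 1 (0.0666) or control 3 (0.0539). Klf2 (-0.04, adjusted p = 0.782) and Klf6 (-0.13, adjusted p = 0.306), both well known in lymphocytes and macrophages, did not pass. Klf9, at means of 17.5 ± 1.04 and 10.5 ± 0.560 CPM, fell (SD, n = 3 each; -0.74, adjusted p = 0.00228), and Klf12, at under 3 CPM, fell (-1.33, adjusted p = 0.0343), which ended without any 1 library but control 3 (0.0626 to 0.126) and by DESeq2 (0.061). Of 17 tested ETS genes other than Spi1, 4 rose, 2 fell and 11 did not pass (median -0.07). Those that rose were Spib, Ets1, Elk4 (edgeR adjusted p = 0.0216) and Etv5 (0.0122), and those that fell were Etv6 and Erf (0.00301). The Elk4 call ended without control 1, control 2 or R274X 2 (0.0721 to 0.0998). That of Etv5 ended without control 2, control 3 or R274X 2 (0.0504 to 0.0717). The Erf call held without any 1 library (highest adjusted p = 0.0206). Spib, the lymphoid relative of Spi1, rose from 10.1 to 41.0 CPM (2.02, adjusted p = 0.0326), a call that ended without control 1 (0.123), control 2 (0.0839), R274X 1 (0.117) or R274X 2 (0.0688), or with no count filter (0.0591). Ets1, a lymphocyte factor, measured 44.2, 42.9 and 49.3 CPM in controls and 85.3, 101.5 and 72.5 CPM in R274X libraries (0.93, adjusted p = 0.000621). Spib and Ets1 thus rose where Spi1 did not pass, and the difference between these genes was not tested. The B cell and plasma cell marker sums were higher in the same group as Spib and Ets1. Of 17 T and NK cell markers 11 were higher and 2 lower there, while their sums overlapped between the groups. The part of such cells in the changes of Spib and Ets1 was not tested.

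**Figure D5:**
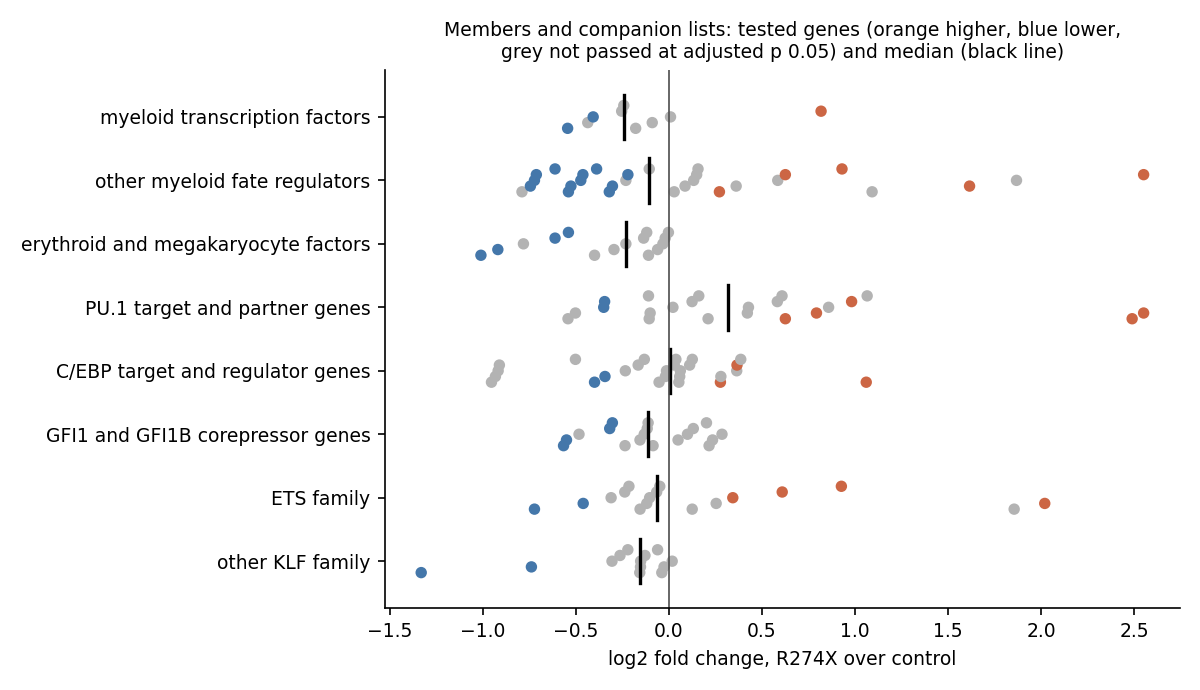
Log2 fold change, R274X over control (x axis), of each tested gene in the 9 myeloid transcription factors and the 7 companion lists, with genes that rose in orange, fell in blue, did not pass in grey, and the median as a black line. Erythroid and megakaryocyte factors, corepressor genes and other KLF genes hold no orange point, and the PU.1 targets have the highest median (0.32). Over all tested genes 10.1% were higher and 7.89% lower.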

How the data were processed

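Per the file headers, the authors deposited 2 columns per library for each Ensembl gene, whole-number counts and FPKM. RNA was extracted with TRIzol and made into libraries with an Illumina TruSeq kit, per the labels' protocols. Per the submitters' processing notes, Bowtie and mm8 were used. No source used here names the counting tool. Of 54532 identifiers 54409 matched GENCODE M21 (GRCm38), whose lengths the deposited FPKM fit for 94.56% to 94.69% of genes with over 200 counts, so coordinates are those of GRCm38. The 123 unmatched rows held at most 0.0475% of counts.

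Counts were tested with edgeR 4.0.16 in R 4.3.3 (quasi-likelihood, TMM, minimum count 10, robust, group only, Benjamini-Hochberg). Ratios and shares of FPKM used exact permutation tests in SciPy 1.17.1. Motifs were matched as exact letters on both strands. The reads carry no molecular identifiers stated in the labels. Replicates were numbered in accession order, and no pair of a group agreed within sampling noise (chi-square per gene at least 12.04). Alternatives were DESeq2 1.42.0, limma-voom (limma 3.58.1), scaling by RLE or the upper quartile, a mean count of at least 50, no filter on counts, robust off, limma on log2 of FPKM plus 1 (mean FPKM at least 0.5) with variants, immunoglobulin genes removed, and each library left out.

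Members and lists were chosen with earlier results of these data known. The genes to be named were the 9 members, Phf6, 18 set genes and the genes most like each changed factor. Added to these were up to 3 genes per list with the smallest p, and those called where 5 or fewer were. Timd4, Cd68, Blk, Bank1, Fcrla, Xbp1, Fkbp11, Derl3, Il5ra, Siglecf, Prg2 and Klf13 met this rule but are not described above. Ctsg, Ltf, Camp, Klf14, Klf15, Klf17, Rcor2, Hdac1 and Hmg20b fall outside this rule and were named after their values were seen.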

Additional observations from a re-analysis of the deposited data

How the results depend on the processing

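Over 18 alternatives Klf4 stayed above 0 and passed in all, and Cebpa passed in 17, missing it with limma on log2(FPKM + 1) without an FPKM filter (-0.52, adjusted p = 0.052). Gfi1 did not pass with the robust option off (-0.41, adjusted p = 0.0524), on log2(FPKM + 1) (-0.37, 0.0905), with a pseudocount of 0.1 (-0.39, 0.0881), without an FPKM filter (-0.37, 0.159) or quantile-normalized (-0.46, 0.0586). The causes were not tested. The number of members called lower was then 1 in each case but 0 without an FPKM filter, and 3 without a count filter, where Gfi1b passed (-0.45). Cebpg fell below 0 with upper-quartile scaling (-0.036), a mean count of at least 50 (-0.0028), no count filter (-0.011) and quantile normalization (-0.015). Among all genes 967, 435 and 663 were higher with a pseudocount of 0.1, no FPKM filter and quantile normalization, and 586, 565 and 225 lower on log2(FPKM + 1), with 0.1 and with no filter, which also left 7 companion genes higher and 8 lower. Of all calls 56.0% were higher with TMM, 45.9% with upper-quartile scaling and 36.7% quantile-normalized.

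Leaving out 1 library at a time gave log2 fold changes of -0.17 to 0.0087 for Cebpb, -0.75 to 0.032 for Cebpe, -0.059 to 0.077 for Cebpg, -0.48 to -0.30 for Gfi1, -0.29 to -0.075 for Spi1, -0.49 to -0.070 for Cebpd and -0.62 to -0.26 for Gfi1b, with 1 to 2 members lower. All genes higher numbered 682 to 1882 and lower 507 to 1413, and companion genes 8 to 21 and 14 to 29. The log2 ratio ranged from -0.065 to 0.19 for Gfi1 to Gfi1b, -0.11 to 0.48 for Cebpe to Cebpa, 0.26 to 0.68 for Spi1 to Gata1 and 0.13 to 0.40 for Spi1 to Gfi1, and the share difference from -0.494 to 0.566 points for Cebpd, -6.77 to 2.6 for Cebpe, 1.87 to 7.59 for Cebpb and 0.117 to 1.57 for Cebpg. No paired analysis was possible because the labels give no replicate numbers. With 3 libraries a group, the exact permutation test of ratios and shares cannot go below p = 0.1.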
